A study of Mus musculus with 2 samples.

Results

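The miR-181 family of the mouse has 6 hairpin genes in 3 pairs: Mir181a-1 with Mir181b-1 on chromosome 1, Mir181a-2 with Mir181b-2 on chromosome 2, and Mir181c with Mir181d on chromosome 8. Its fragments were taken as all sequences of 15 to 17 nt that matched 1 of these 6 hairpins, of 1174 hairpins with a Mir symbol in the GENCODE annotation, exactly, over their full length and on the sense strand. They came to 15 distinct sequences and 390 reads. The RNA came from J1, an embryonic stem cell line derived from the inner cell mass of a 129S4/SvJae mouse embryo. The cells were adapted to growth on gelatin, in medium that held Knockout Serum Replacement and leukaemia inhibitory factor (LIF, 1000 U/mL), a cytokine that keeps mouse stem cells undifferentiated. For 24 h the cells received either SB431542 at 3 µM or an equal volume of its solvent, DMSO. SB431542 inhibits the type I receptor kinases ALK4, ALK5 and ALK7, through which TGF-beta, activin and Nodal signal to Smad proteins. With 1 library in each group, differences between them could not be set against a spread of replicates and carry no p-value; each 95% interval covers counting error only. Reads copied by PCR without molecular identifiers are not independent molecules. The family was chosen by its read numbers and its ratios in these same 2 libraries, so those values are a description.

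A miRNA gene is transcribed as a long primary transcript, from which Drosha cuts a hairpin, and Dicer then releases a short duplex of the 5p and the 3p arm. The retained strand guides Argonaute to messenger RNAs chiefly through its seed, bases 2 to 8. The miR-181 family is best known from lymphocyte development, and in embryonic stem cells miR-181 has been described as a repressor of the Polycomb gene Cbx7. In some other cell types TGF-beta has been described to raise miR-181 levels. Mature miRNAs are longer than the sequences in these files, so all values are of short fragments of an arm, and full-length miR-181 is not analysed here.

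The mature sequences of the family from RefSeq (GRCm38.p6) are shown for the arms that had reads, 5′ to 3′ with the seed in capitals, because the places where they differ decide which fragments can be given to a gene.
miR-181a-5p: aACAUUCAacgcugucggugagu
miR-181b-5p: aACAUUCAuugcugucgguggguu
miR-181c-5p: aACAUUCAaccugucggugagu
miR-181d-5p: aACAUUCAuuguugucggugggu
miR-181a-2-3p: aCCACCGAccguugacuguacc
miR-181c-3p: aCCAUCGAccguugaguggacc
All 4 of the 5p miRNAs share the seed ACAUUCA. The 3p arms do not: CCAUCGA is shared by miR-181a-1-3p and miR-181c-3p, while miR-181a-2-3p has CCACCGA. Counted from 1 at the mature 5′ end, miR-181b-5p and miR-181d-5p differ within their first 17 bases by C12U alone. The 3p arms of Mir181a-1 and Mir181c are alike up to the difference U16G, so a fragment from that start separates these genes only if it is at least 16 nt long. The miR-181a-5p of both Mir181a copies is the same molecule, as is the miR-181b-5p of both Mir181b copies, and no read of them can be given to chromosome 1 or chromosome 2.

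In the GRCm38 annotation Mir181c (chr8:84178873-84178961) and Mir181d (chr8:84178716-84178787) lie on the minus strand with 85 bases between them, in an intron of Nanos3, a germ-cell gene on the same strand. Mir181a-1 (chr1:137966455-137966541) and Mir181b-1 (chr1:137966639-137966718) lie on the plus strand, 97 bases apart, in an intron of the noncoding gene Gm4258. On the same strand, Mir181b-1 is also within an exon of the long noncoding RNA A430106G13Rik, and Mir181a-1 is partly in an exon of it. The A430106G13Rik transcript holds the 3 miR-181b-5p fragments too. Those reads cannot be told apart from pieces of that transcript. Mir181a-2 (chr2:38852735-38852810) and Mir181b-2 (chr2:38853830-38853918) are also on the plus strand, opposite an intron of Nr6a1, which encodes an orphan nuclear receptor, with 1019 bases between them. Of the 15 sequences, the other 12 matched no other annotated transcript.

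The DMSO library held 990296 reads of 15 to 17 nt, of which 77907 were assigned to miRNAs, and the SB431542 library 517535 and 21808. Levels are given as reads per 1000000 of these miRNA reads (RPM), and a count of 0 allows up to 3 reads, 38.5 RPM with DMSO and 138 RPM with SB431542. The 7 hairpins of the stem-cell cluster that begins with Mir290a, the check of the cell type, held 507156 RPM with DMSO and 481750 RPM with SB431542. Reads came from 6 of them. miR-293-3p alone had 38924 of the 39511 DMSO reads and 10359 of the 10506 SB431542 reads. The check thus rests almost wholly on that arm. The 5 fibroblast and feeder genes Mir143, Mir145a, Mir199a-1, Mir199a-2 and Mir214 had 56 and 9 reads, from 3 of them (719 and 413 RPM, log2 -0.74, -2.0 to 0.23). Their value was lower with SB431542, as was that of the miR-181 family, but the interval per miRNA reads included 0. It also included 0 with the miRNA total without its 5 most abundant arms (-0.91, -2.18 to 0.05). With DESeq2 size factors from arms with at least 50 reads it did too (-0.84, -2.11 to 0.12). The interval lay below 0 with edgeR TMM factors (-1.08, -2.35 to -0.12) and with DESeq2 size factors (-0.99, -2.25 to -0.03). Per reads of 15 to 17 nt it was also below 0 (-1.64, -2.90 to -0.67). The 6 neural genes of miR-9 and miR-124 had 32 and 6 reads (411 and 275 RPM, log2 -0.49, -2.13 to 0.70). Their interval lay below 0 per reads of 15 to 17 nt (-1.39, -3.03 to -0.20) but not with edgeR TMM factors (-0.83, -2.47 to 0.35). The blood miRNAs Mir142, Mir223 and Mir451a had no reads. Any part of such cells in the results below was not tested.

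miR-181 fragments made up 0.444% of the miRNA reads with DMSO (346 reads, Clopper-Pearson interval 0.399 to 0.493%) and 0.202% with SB431542 (44 reads, 0.147 to 0.271%). At the smaller miRNA total of the SB431542 library the DMSO level would have given 96.9 reads. The family sum was therefore 2.18-fold lower with SB431542 (log2 -1.12, 95% interval -1.63 to -0.68, pseudocount 0.5 read). The pseudocount is part of such log2 ratios and of fold values taken from them, but not of RPM values or intervals. It was lower on each scale tried, and 4.07-fold lower per reads of 15 to 17 nt (log2 -2.02, -2.53 to -1.58), since miRNAs as a whole were a smaller part of that library. Most of the sum came from miR-181c-3p and miR-181d-5p, the 2 arms of the family that reached 50 reads when both libraries were added.

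The genes of chromosome 8 supplied nearly all of the fragments. Mir181c and Mir181d together had 314 of the 346 family reads with DMSO (90.8%, 87.2 to 93.6%) and 42 of 44 with SB431542 (95.5%, 84.5 to 99.4%). The 4 genes of chromosomes 1 and 2 had 32 and 2 reads. Of these, 29 and 2 were of 5 sequences present in both copies of a gene, 3 and 0 belonged to Mir181a-2 alone, and no read belonged to Mir181a-1 or a Mir181b copy alone. Summed, these 4 genes gave a log2 ratio of -1.86 with an interval of -5.27 to -0.19. With shared reads divided equally, the interval of each pair included 0: chromosome 1 had -1.49 (-7.42 to 0.69) and chromosome 2 -1.75 (-7.68 to 0.38). Both rest on the same 2 SB431542 reads. With shared reads counted whole for each copy, the intervals lay just below 0 (-5.13 to -0.04 and -5.27 to -0.19). The Mir181c and Mir181d sum was 2.07-fold lower with SB431542 (log2 -1.05, -1.57 to -0.60).

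The fragments that carried most reads are shown as the files write them, with T for U and the seed in capitals, to show that each begins at the first base of a mature arm.
miR-181c-3p, 17 nt: aCCATCGAccgttgagt
miR-181d-5p, 15 nt: aACATTCAttgttgt
miR-181d-5p, 16 nt: aACATTCAttgttgtc
miR-181d-5p, 17 nt: aACATTCAttgttgtcg
miR-181b-5p, 15 nt: aACATTCAttgctgt
The place of the 17 nt miR-181d-5p fragment in its hairpin (RefSeq, chr8:84178716-84178787, minus strand), in capitals from base 7 to base 23, was as follows.
Mir181d: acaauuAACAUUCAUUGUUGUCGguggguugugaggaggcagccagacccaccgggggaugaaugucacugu

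**Figure D1:**
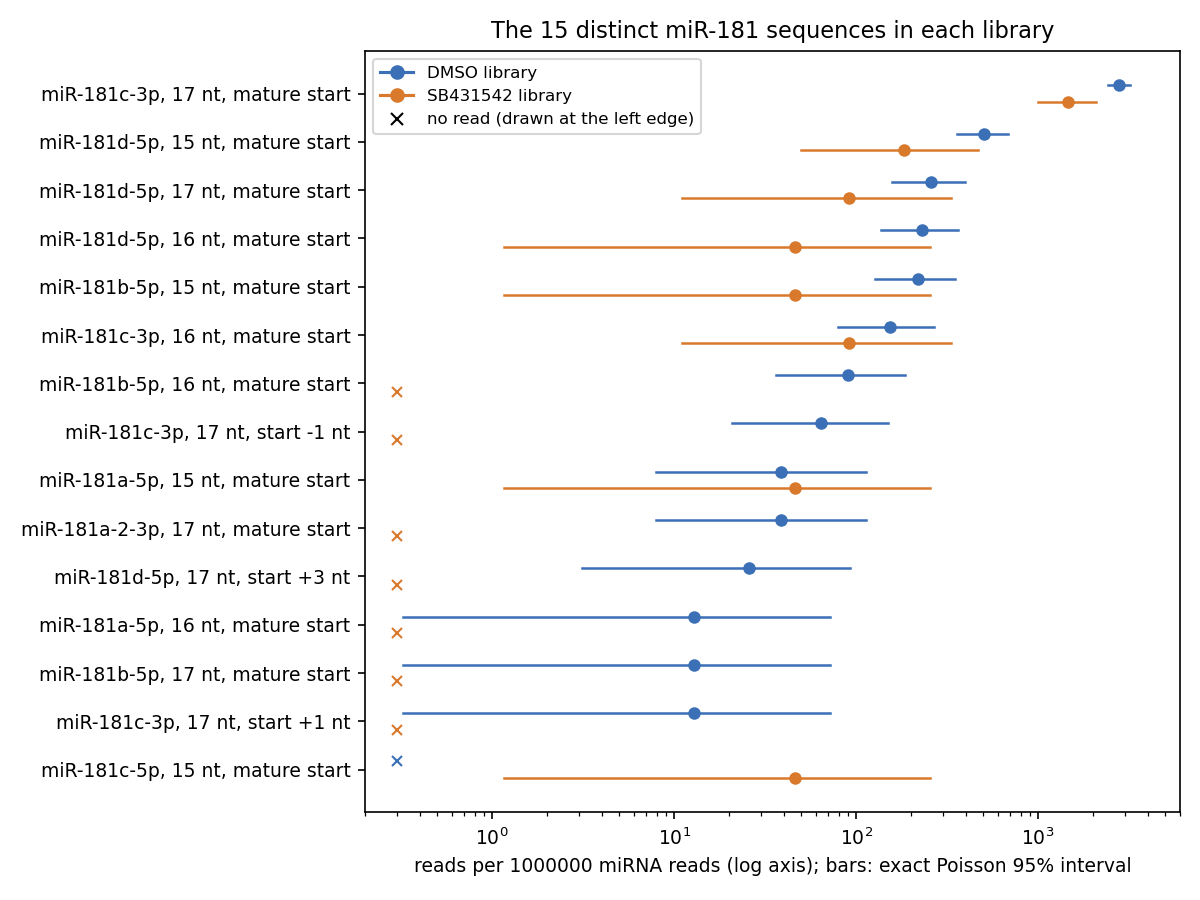
Level of each of the 15 distinct miR-181 sequences in reads per 1000000 miRNA reads on a log axis, with exact Poisson 95% intervals, DMSO in blue and SB431542 in orange; sequences are named by arm, length and start relative to the mature 5′ end, and crosses mark libraries with no read. The 17 nt fragment of miR-181c-3p stands at 2785 RPM with DMSO and 1467 RPM with SB431542, above all other sequences of both libraries.

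miR-181c-3p, the arm opposite the one usually named as the guide strand of Mir181c, was the most abundant member. It had 235 reads with DMSO and 34 with SB431542, or 3016 and 1559 RPM. The level was 1.91-fold lower with SB431542 (log2 -0.93, -1.52 to -0.43). A single 17 nt sequence made up 217 of the 235 reads and 32 of the 34, with a log2 ratio of -0.91 (-1.51 to -0.38). Without this sequence the family sum, 129 and 12 reads, had a log2 ratio of -1.54 (-2.58 to -0.74), so it did not by itself set the direction. The lower value of miR-181c-3p lay just short of 2-fold per miRNA reads, as it did with a GC correction (-0.99) and from 16 nt (-0.95). It lay past 2-fold with edgeR TMM factors (-1.28) and DESeq2 size factors (-1.19, or -1.04 from arms with at least 50 reads). The miRNA total without its 5 most abundant arms gave -1.11. Each of these intervals held the 2-fold limit, so the counts do not place the value on either side. Per reads of 15 to 17 nt it was past 2-fold (-1.83, -2.42 to -1.33). Over 15 to 17 nt the 5p arm of Mir181c, miR-181c-5p, had 0 reads with DMSO and 1 with SB431542, at or under the limit in both libraries.

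miR-181d-5p, a guide with the family seed, had 79 reads with DMSO and 7 with SB431542. Its level was 1014 RPM with DMSO against 321 RPM with SB431542, and with the pseudocount 2.97-fold lower with SB431542 (log2 -1.57, -3.02 to -0.55). The 3 lengths were each lower, with 39 and 4 reads at 15 nt, 18 and 1 at 16 nt, and 22 and 2 at 17 nt. The interval of each single length included 0 (at 15 nt, -3.39 to 0.02), so the difference shows in their sum and not in any of these 3 lengths alone. The opposite arm, miR-181d-3p, had no read in either library.

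miR-181b-5p, the same in both Mir181b copies, had 25 reads with DMSO and 1 with SB431542, or 321 and 45.9 RPM. The log2 ratio of -2.25, with the pseudocount, has an interval of -8.17 to -0.20, so its size is known only within wide limits. The 1 SB431542 read lies under the limit of 3 reads. miR-181a-5p, the member best known from T cells, had only 4 and 1 reads, or 51.3 and 45.9 RPM. The interval of its log2 ratio of 0.25 ran from -5.79 to 3.17. That ratio is above 0 only through the pseudocount, as the RPM value was slightly lower with SB431542. No difference was detectable for miR-181a-5p at this depth. miR-181a-2-3p had 3 and 0 reads. The arms miR-181a-1-3p, miR-181b-1-3p, miR-181b-2-3p and miR-181d-3p had none, so 4 of the 10 mature miRNAs of the family were not seen.

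In order of level with DMSO over 15 to 17 nt, miR-181c-3p came first (3016 RPM), then miR-181d-5p (1014 RPM), miR-181b-5p (321 RPM), miR-181a-5p (51.3 RPM), miR-181a-2-3p (38.5 RPM) and miR-181c-5p (no read). With SB431542 the first and second places were the same, at 1559 and 321 RPM, and below them miR-181b-5p, miR-181a-5p and miR-181c-5p had 1 read each, so that they have no order. Among reads of the 5p arms alone, which share a seed, miR-181d-5p made up 73.1% with DMSO (79 of 108, 63.8 to 81.2%) and 70.0% with SB431542 (7 of 10, 34.8 to 93.3%). miR-181b-5p made up 23.1% (15.6 to 32.2%) and 10% (1 of 10, 0.253 to 44.5%). The intervals of both shares overlap between the libraries.

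The ratio of one arm to another within a library does not depend on the scale. Relative to miR-181c-3p, miR-181d-5p had a log2 ratio of ratios, SB431542 over DMSO, of -0.71 with an interval of -2.18 to 0.56. For miR-181b-5p against miR-181c-3p it was -1.85 (-7.26 to 0.86), and for miR-181b-5p against miR-181d-5p -1.14 (-6.70 to 1.93). All 3 intervals include 0, so these 3 arms were not distinguishable in their ratios. The 5p reads summed to 108 and 10 (log2 -1.53, -2.70 to -0.66) and the 3p reads to 238 and 34 (log2 -0.95, -1.53 to -0.45), with overlapping intervals.

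**Figure D2:**
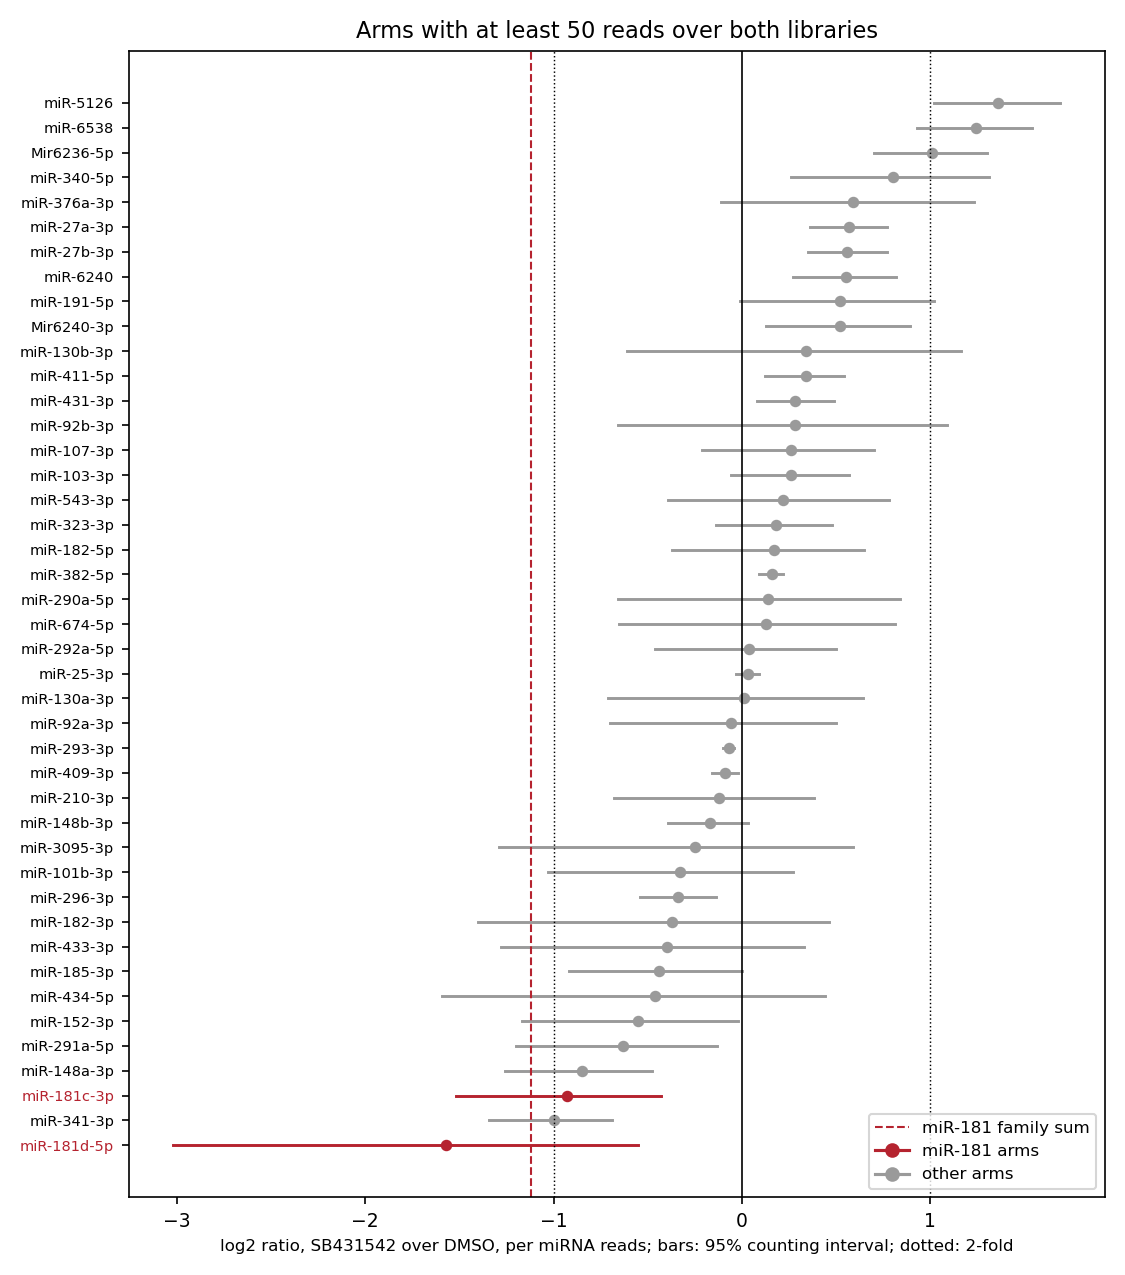
Log2 ratio of SB431542 over DMSO per miRNA reads for the 43 arms that had 50 or more reads in the libraries together, ordered by ratio, with 95% counting intervals, the miR-181 arms in red and the sum of the family as a dashed line; the dotted lines mark 2-fold. miR-181d-5p at -1.57 is the lowest and miR-181c-3p at -0.93 the third lowest.

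Of the 43 arms with at least 50 reads, 2 were at least 2-fold lower with SB431542 (4.65%), and miR-181d-5p is 1 of them. The other is miR-341-3p, at the 2-fold limit. At least 2-fold higher were 3 of the 43 (6.98%), with no miR-181 arm among them. They were Mir6236-5p, miR-6538 and miR-5126. Mir6236-5p had no mature start in RefSeq. Of the reads of miR-6538, 11.8% began at the mature start, with 93.7% GC, and of miR-5126 14.6%, with 100% GC. Whether these 3 are miRNA fragments was not tested, and they are part of the miRNA total. The median log2 ratio of the 43 was 0.13, and that of the 2 miR-181 arms lay below it by more than their counting intervals. Intervals lay wholly below 0 for 10 of the 43 arms (23.3%), both miR-181 arms included. Because the family was picked with these values known, its place in this order is no evidence about it. The 3 other arms nearest to the family sum were miR-341-3p (log2 -1.0, -1.34 to -0.69), an arm of the imprinted Dlk1-Dio3 region, miR-148a-3p (-0.85, -1.26 to -0.48) and miR-291a-5p (-0.63, -1.20 to -0.13) of the stem-cell cluster. They lay 0.12, 0.27 and 0.49 from it on the log2 scale, a likeness over 2 libraries only.

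Other miRNAs linked to TGF-beta and Smad signalling in other cells were taken as a list of 29 genes, among them Mir21a, Mir155, Mir192, the miR-29 and miR-200 families and the clusters of miR-23, miR-24 and miR-27. Reads were found for 18 of the 29, 1428 in all with DMSO and 574 with SB431542. The sum had a log2 ratio of 0.52 (0.38 to 0.66) per miRNA reads, -0.38 per reads of 15 to 17 nt and -0.43 per all reads in the file. Nearly all of its reads were of miR-27. Without Mir27a and Mir27b, a choice made after the values were seen, the other 27 genes had 97 and 24 reads and a log2 ratio of -0.16, with an interval of -0.89 to 0.48 that includes 0. The 2 arms with enough reads were miR-27a-3p (0.57, 0.36 to 0.77) and miR-27b-3p (0.56, 0.35 to 0.77), whose reads cannot be separated, and neither was 2-fold apart. The stem-cell cluster holds so much of the miRNA total that its ratio per miRNA reads, -0.07, is held near 0 by that scale. It was -0.42 with edgeR TMM factors and -0.97 per reads of 15 to 17 nt.

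The share of 17 nt fragments was higher for miR-181c-3p than for miR-181d-5p in each library, with intervals that did not overlap, while the few SB431542 reads do not allow a comparison of lengths between the libraries. Of the reads of miR-181c-3p, 17 nt fragments made up 94.9% with DMSO (91.3 to 97.3%) and 94.1% with SB431542 (80.3 to 99.3%). For miR-181d-5p they made up 27.8% (18.3 to 39.1%) and 28.6% (3.67 to 71.0%). Over both libraries the 94.8% of miR-181c-3p was the third highest among the 43 arms, after miR-27a-3p and miR-27b-3p, and the 27.9% of miR-181d-5p was number 35. The median of the 43 arms was 52.6%, with 43.2% for the 14 arms of the 5p side and 64.2% for the 29 of the 3p side. The files end at 17 nt, so a fragment pattern that goes on to longer reads is cut there.

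Below 15 nt, fragments that begin at the mature 5′ end show where each arm's series starts. miR-181d-5p had 6 reads of 12 nt with DMSO, then 104 of 13 nt, 80 of 14 nt, 39 of 15 nt, 18 of 16 nt and 20 of 17 nt. With SB431542 the numbers were 0, 7, 8, 4, 1 and 2. Its fragments were thus most numerous at 13 and 14 nt, which held 68.9% of the 12 to 17 nt reads with DMSO (63.0 to 74.4%) and 68.2% with SB431542 (45.1 to 86.1%). For miR-181c-3p, 13 and 14 nt held 2 of 231 reads (0.866%, 0.105 to 3.09%) and 0 of 34, although up to 15 nt its sequence is also that of miR-181a-1-3p. miR-181b-5p had 7, 19, 17, 7 and 1 reads from 13 to 17 nt with DMSO, most at 14 and 15 nt, and with SB431542 only 1 read, of 15 nt. The 13 nt sequences of miR-181d-5p and of miR-181b-5p each occur in 5 genes outside the family, and the 14 nt ones in 1 and 3, so these shorter reads are less surely from the hairpins. With them counted, miR-181d-5p had more reads than miR-181c-3p in the DMSO library. From 13 to 17 nt at the mature start it had 261 reads (3350 RPM) and miR-181c-3p 231 (2965 RPM). These numbers are close, and their order was not tested. With SB431542 miR-181c-3p stayed first, with 34 reads against 22.

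The 13 and 14 nt reads were not used in the ratios above and come from the same 2 libraries. For miR-181d-5p they numbered 184 with DMSO and 15 with SB431542, with a log2 ratio of -1.74 (-2.65 to -1.02) against the same miRNA totals. At 13 nt alone it was -1.96 (-3.41 to -0.96) and at 14 nt -1.41 (-2.75 to -0.44). For miR-181b-5p they numbered 26 and 0, and the upper end of the interval of the log2 ratio was -0.88. With the SB431542 count set to the limit of 3 reads, the level was 2.43-fold lower. That value leaves out the counting error of the DMSO reads. The miR-181d-5p and miR-181b-5p values for these lengths lay below 0 as did those for 15 to 17 nt. miR-181a-5p had 7 and 1 reads of 13 and 14 nt, and the interval of its log2 ratio of -0.49 (-6.46 to 1.99) included 0. miR-181c-5p had 5 and 0 reads at 14 nt.

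**Figure D3:**
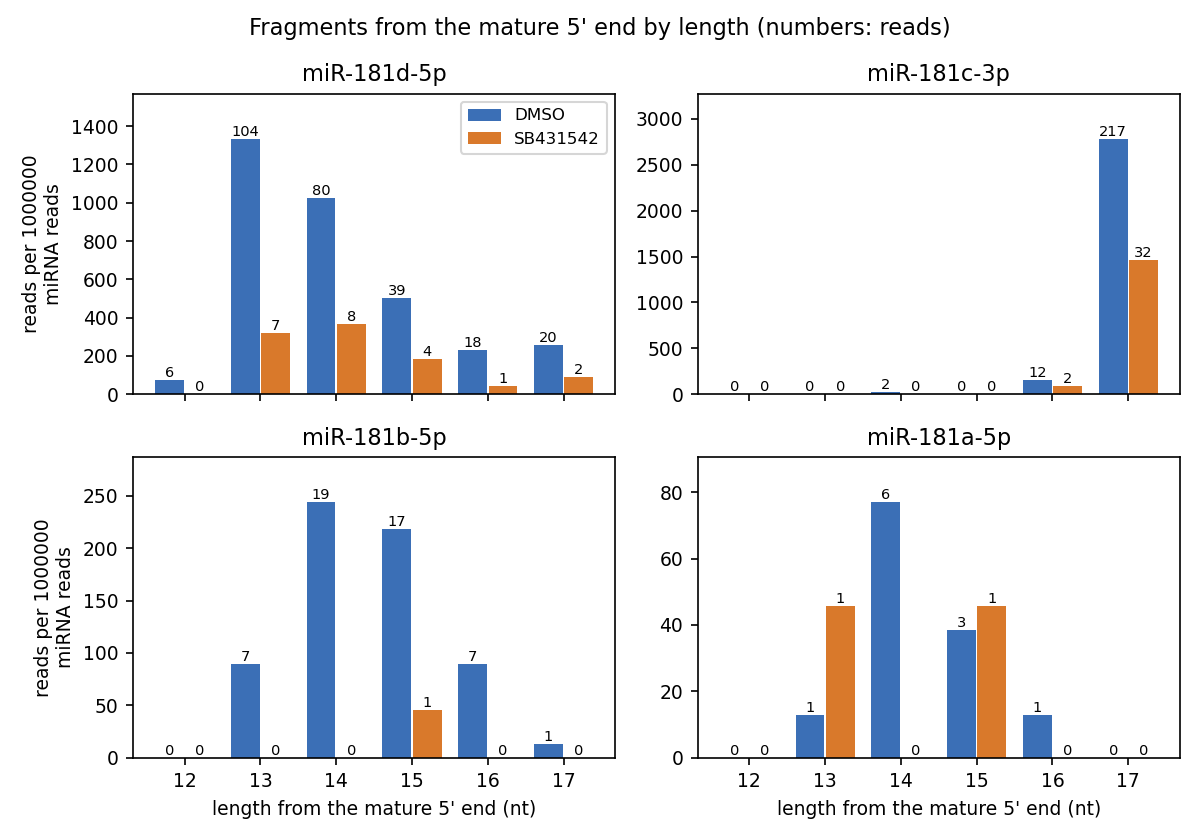
Fragments beginning at the mature 5′ end of 4 miR-181 arms by length from 12 to 17 nt, in reads per 1000000 miRNA reads of 15 to 17 nt, with the read number above each bar, DMSO in blue and SB431542 in orange; the vertical scale differs between panels. miR-181d-5p peaks at 13 nt with 104 and at 14 nt with 80 reads with DMSO, whereas miR-181c-3p has 217 reads at 17 nt and 12 at 16 nt.

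The first base of the fragments was nearly always that of the mature miRNA. It was so for 338 of 346 reads with DMSO (97.7%, 95.5 to 99.0%) and for 44 of 44 with SB431542 (lower bound 92.0%). The 8 other DMSO reads were 5 of miR-181c-3p that began 1 base earlier, 1 that began 1 base later, and 2 of miR-181d-5p that began 3 bases later. Among the 39 other arms with at least 50 reads and a mature start in RefSeq, the median share at that start was 96.4%, and 13 of them were under 90%. No read with a single base that does not match at its 3′ end was found for the family, and 4 sequences, with 2 reads in each library, were 1 base away from a member hairpin.

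Base composition moved with the libraries. Among all reads of 15 to 17 nt, bases G and C averaged 60.7% in the DMSO library against 64.2% in the SB431542 library, whereas for miRNA reads the mean was 52.3% in both. The reads of miR-181d-5p held 30.2% GC, those of miR-181b-5p 34.7% and those of miR-181c-3p 53.1%. Per reads of 15 to 17 nt, sequences outside hairpins had a median log2 ratio of -0.72 at 30 to 40% GC and -0.23 at 50 to 60% GC, while miR-181d-5p stood at -2.47 and miR-181c-3p at -1.83. A correction by GC content, added after the data had been seen, gave -1.26 (-2.38 to -0.39) for miR-181d-5p, -0.99 (-1.53 to -0.52) for miR-181c-3p and -1.09 (-1.54 to -0.69) for the family sum in RPM. These intervals treat corrected SB431542 values of 10.8, 39.8 and 55.0 as reads, where 7, 34 and 44 were seen. They are therefore too narrow for the counting error of the reads seen. The 4 other arms with under 40% GC, miR-130a-3p, miR-182-5p, miR-376a-3p and miR-340-5p, had log2 ratios from 0.01 to 0.80 in RPM and from -0.89 to -0.10 per reads of 15 to 17 nt.

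**Figure D4:**
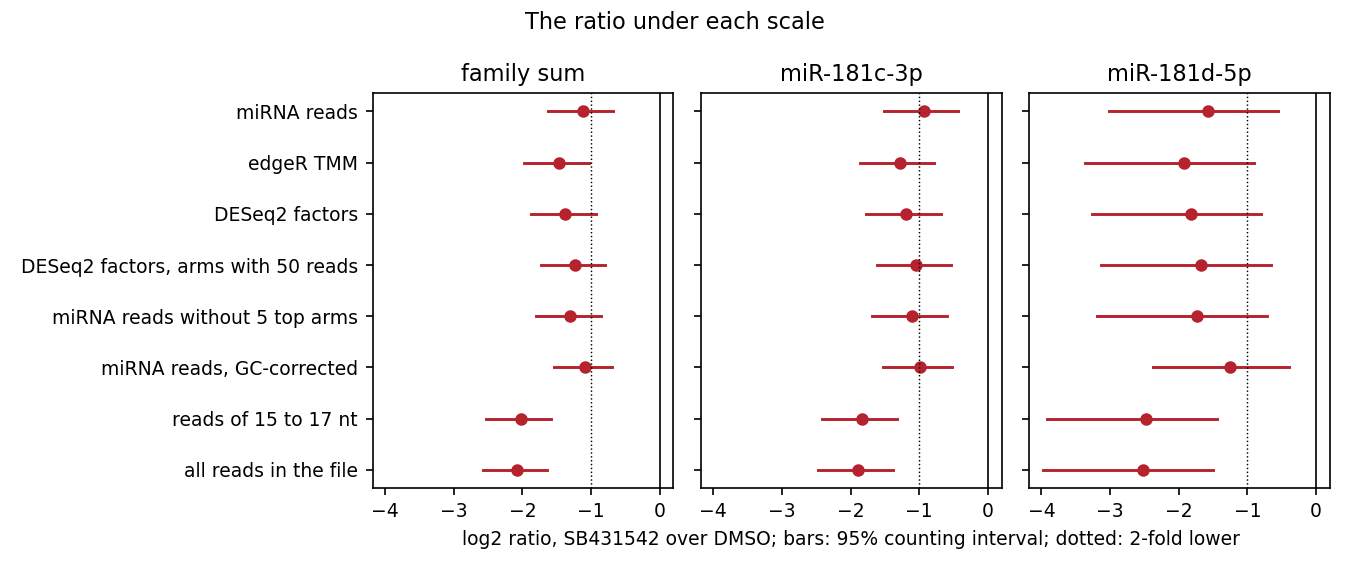
Log2 ratio of SB431542 over DMSO with 95% counting intervals for the family sum, miR-181c-3p and miR-181d-5p under 8 scales; the solid line marks no difference and the dotted line 2-fold lower. All points lie below 0, and those of the family sum run from -1.09 with a GC correction to -2.08 per all reads in the file. The intervals with the GC correction treat corrected values as reads and are too narrow.

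With 1 library in each group, effects of the treatment and of library preparation cannot be told apart.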

How the data were processed

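Small RNA reads were analysed from 1 DMSO and 1 SB431542 library of J1 cells. Per the labels' protocols, RNA was isolated with TRIzol and 1 µg of total RNA entered an Illumina TruSeq RNA kit. The deposited values are raw counts of reads per distinct sequence of 3 to 17 nt, not normalized. How sizes were selected, and which trimming and aligner the authors used, is not given in the sources used here. Build mm9, named in the submitters' processing notes, was not used.

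Sequences of 15 to 17 nt were matched to GENCODE M21 transcripts and given to an arm by their midpoint. Sequences in several hairpins were divided equally. Sequences found in other small RNA classes too, or in over 5 further genes, were set aside, none of them miR-181. Levels are per 1000000 miRNA reads. Ratios carry a pseudocount of 0.5 read, and their exact conditional binomial intervals do not. Matching and intervals were tested on simulated data. All members, their arms, sequences with at least 20 reads and the 3 nearest other arms were to be named. The members and lists were chosen with earlier results of these data known. Alternatives covered scale, length, shared sequences and base composition. Python 3.11.15, scipy 1.17.1, edgeR 4.0.16 and DESeq2 1.42.0 (scaling factors only) were used.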

Additional observations from a re-analysis of the deposited data

How the results depend on the processing

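All 87 alternative ratios of the family sum, the 3 loci, miR-181c-3p, miR-181d-5p and miR-181b-5p were below 0, and 81 lay within the counting interval of the value reported. They reuse largely the same reads, many of them only rescaled, so they are not 87 separate checks. For the loci of chromosomes 1 and 2 and for miR-181b-5p the intervals are so wide that lying within them says little. The ratios outside their intervals were on the scales of all short reads. Per reads of 15 to 17 nt the log2 ratio was -2.02 for the family sum, -1.95 for Mir181c and Mir181d, and -1.83 for miR-181c-3p. Per all reads in the file it was -2.08, -2.01 and -1.89. These scales moved every ratio by -0.90 and -0.96, and raised the number of the 43 arms at least 2-fold lower from 2 to 15 and 18, while those at least 2-fold higher went from 3 to 0 on both. With edgeR factors (shift -0.35) and DESeq2 factors (-0.25), 4 arms were lower and 1 higher. Counted by distinct sequences, 80% began at the mature start (12 of 15). The loci of chromosomes 1 and 2, at -1.49 and -1.75 with shared reads divided equally, rest on 1 SB431542 read each, and both intervals (-7.42 to 0.69 and -7.68 to 0.38) include 0. These are equal parts of the same 2 shared reads, so the 2 ratios are not separate observations. With shared reads counted whole for each copy, the intervals lay below 0 (-5.13 to -0.04 and -5.27 to -0.19). From 14 nt they did too (-8.31 to -0.36 and -8.41 to -0.47). With minimum lengths of 16 or 17 nt, or only sequences of 1 member, these loci gave no ratio. No paired analysis was possible because each group has 1 library.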
